A study of Mus musculus with 282 samples.

Results

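Immediate early genes and genes known to answer to cell isolation and sorting were examined in single mouse hematopoietic stem cells (HSCs). The 32 genes were chosen by symbol and each was found as 1 row among the 49671 Ensembl genes of the deposited count table. They are the AP-1 and Atf3 factors (Fos, Fosb, Fosl2, Jun, Junb, Jund, Atf3), the Egr factors (Egr1, Egr2, Egr3), the Klf factors (Klf2, Klf4, Klf6, Klf10), the Nr4a receptors (Nr4a1, Nr4a2, Nr4a3), the Ier genes (Ier2, Ier3, Ier5), the dual specificity phosphatases (Dusp1, Dusp2, Dusp6), mRNA decay and antiproliferative genes (Zfp36, Zfp36l1, Btg1, Btg2) and feedback genes of the NF-kB, cytokine and stress pathways (Nfkbia, Nfkbiz, Socs3, Ppp1r15a, Gadd45b).

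The series holds 282 single cells sorted as LSK CD48-/lo CD150+ from the bone marrow of adult mice, a gate enriched for HSCs. All cells share 1 genotype, rtTA/rtTA at Rosa26 (a doxycycline-controlled transactivator) and H2B-GFP/H2B-GFP at Col1a1 (a histone-GFP reporter), and none was induced with doxycycline, so there is 1 group and no unstressed or stimulated control. The series description gives 6 mice of 12 to 22 weeks in 2 experiments. The labels do not tie cells to mice, and they split the cells into 2 library series (L29 and L32) and 4 HSC codes, which together form 6 sets that are not known to be separate animals.

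Immediate early genes are transcribed within minutes of a signal, without new protein synthesis, when kinase cascades such as the MAP kinases activate factors already present, among them SRF with its Elk partners, CREB and NF-kB. Their mRNAs are short-lived, and many of their products (the Dusp phosphatases, Nfkbia, Socs3, Zfp36) shut the same pathways off again. In blood cells isolated from tissue the same genes can be switched on by dissociation, antibody staining and sorting, and several of them (Egr1, Junb, Nr4a1) are also known regulators of HSC quiescence.

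Promoter sequences were read from RefSeq (build GRCm38.p6) for 27 of the 32 members. Egr1, Egr3, Ier2, Klf10 and Nfkbiz had no entry. Those of Fos, Ier3 and Nfkbia are printed because Fos is the classical immediate early gene and was nearly absent here, Ier3 was among the members most tied to the others, and Nfkbia was the member found in most cells. Each line holds the 250 bases before the gene's start, 5′ to 3′ on the gene's strand. Capitals mark the match to the NF-kB site and, in Fos, to the TATA motif TATAAA.
Fos: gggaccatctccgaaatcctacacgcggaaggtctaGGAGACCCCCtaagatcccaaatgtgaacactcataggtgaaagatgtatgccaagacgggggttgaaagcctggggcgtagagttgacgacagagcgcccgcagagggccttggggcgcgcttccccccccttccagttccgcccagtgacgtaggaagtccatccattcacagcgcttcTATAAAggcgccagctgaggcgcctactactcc
Ier3: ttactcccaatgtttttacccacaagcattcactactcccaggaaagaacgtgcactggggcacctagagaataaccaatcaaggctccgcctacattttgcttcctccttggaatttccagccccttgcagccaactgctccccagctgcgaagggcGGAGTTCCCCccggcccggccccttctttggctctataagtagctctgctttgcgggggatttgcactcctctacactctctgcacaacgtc
Nfkbia: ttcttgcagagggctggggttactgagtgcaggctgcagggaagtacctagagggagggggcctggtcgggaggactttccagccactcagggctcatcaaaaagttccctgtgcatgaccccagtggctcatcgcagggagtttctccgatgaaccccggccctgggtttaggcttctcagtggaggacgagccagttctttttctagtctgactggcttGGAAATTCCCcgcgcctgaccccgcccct
They lie at chr12:85473640-85473889 (plus strand, Fos), chr17:35821463-35821712 (plus strand, Ier3) and chr12:55492648-55492897 (minus strand, Nfkbia). The NF-kB match begins 214 bases before the start of Fos, 92 before that of Ier3 and 29 before that of Nfkbia, and the TATA match of Fos 33 bases before its start. In the windows of 300 bases (250 before and 50 after the start), 7 of the 27 members had an NF-kB match, Egr2, Fos, Fosb, Fosl2, Ier3, Nfkbia and Nr4a1, against 8.46% of all 32851 promoters. TATAAA was in 8 members (Btg1, Fos, Gadd45b, Junb, Nfkbia, Nr4a2, Ppp1r15a and Zfp36l1) against 13.6% of promoters, and the EGR motif GCGGGGGCG in 8 (Dusp2, Fosb, Fosl2, Klf2, Klf4, Nr4a1, Socs3 and Zfp36) against 2.91%. The CRE motif TGACGTCA was in Btg2, Dusp1 and Ppp1r15a (1.79% of promoters), the CArG box, to which SRF binds, in Egr2 and Zfp36 (1.63%), the AP-1 motif TGANTCA in Zfp36l1 (7.81%) and the ETS motif CCGGAA in Egr2, Nr4a1 and Zfp36 (14.9%). A member was counted when any of its windows matched, while the background is a share of single promoters. The 27 members had 31 windows, the additional ones all of Egr2. Motifs were searched on both strands, and a match is a run of letters and not a measured binding site.

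Of the 282 cells, 232 held at least 100000 gene counts and 1000 genes and were kept. Their totals had a median of 280096 counts (range 116009 to 1680714), so that 10 CPM (a count scaled to the cell's total of gene counts) is 2.801 reads in the median cell. The sets held 46 kept cells in L29 HSC-3, 43 in L29 HSC-4, 22 in L32 HSC-2, 44 in L32 HSC-3, 38 in L32 HSC-4 and 39 in L32 HSC-5. Cells of L29 HSC-4 differed from the rest, with 4151 genes in the median cell (5126 to 5686 elsewhere) and 6.66% mitochondrial reads (3.28% to 3.73% elsewhere). All 26 HSC identity genes reached 10 CPM in at least 10% of cells, Angpt1 among them, while Elane and Ctsg (myeloid), Cd3g and Gzma (T and NK) and Cdh5 and Cxcl12 (endothelial and stromal) reached it in 0 of 232 cells, which allows up to 1.29% each. Other markers of these lists were present: 3 of 5 megakaryocytic, 1 of 5 erythroid (Hbb-bs, 11.2% of cells), 1 of 5 myeloid (Fcer1g, 37.1%), 1 of 5 B cell (Cd79b, 24.6%), 0 of 5 T and NK and 2 of 6 endothelial and stromal markers (Pecam1, 23.3%, and Col1a2, 15.9%) reached 10 CPM in at least 10% of cells, and their part in the results was not tested. Summed marker levels ran from 30.8 to 104.7 CPM over the sets for B cells, 49.3 to 175.8 for myeloid, 9.47 to 19.1 for erythroid, 19.1 to 64.5 for T and NK and 28.1 to 130.8 for endothelial and stromal and 98.0 to 172 for megakaryocytic cells, against 6378 to 8738 CPM for the HSC identity list. Background came from 38 near-empty wells (below the filter, with fewer gene reads than spike-in reads), all in the HSC-2 and HSC-3 sets of L32. No molecular identifiers were used, so reads of PCR copies are counted repeatedly, and intervals and floors cover counting error only.

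Detection in a cell meant at least 10 CPM. Of the 32 members, 15 (46.9%) were detected in at least 10% of the kept cells. The background was 9689 genes, 19.5% of all 49671 and 27.5% of the 35274 with a read in a kept cell. The 15 members are the ones followed in the correlations. Only 3 members, Nfkbia, Klf10 and Ier2, reached 50% of cells, and 9 stayed under 2%. In the near-empty wells the 32 members summed to 337 CPM against 1656 CPM in the 66 kept cells of the same sets. None of the 15 was higher in the near-empty wells than in those cells, while 9 of the other members were. These 9 rested on 1 to 9 pooled reads each in the near-empty wells, where 3 reads are 4.86 CPM, so their excess there is uncertain.

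**Figure D1:**
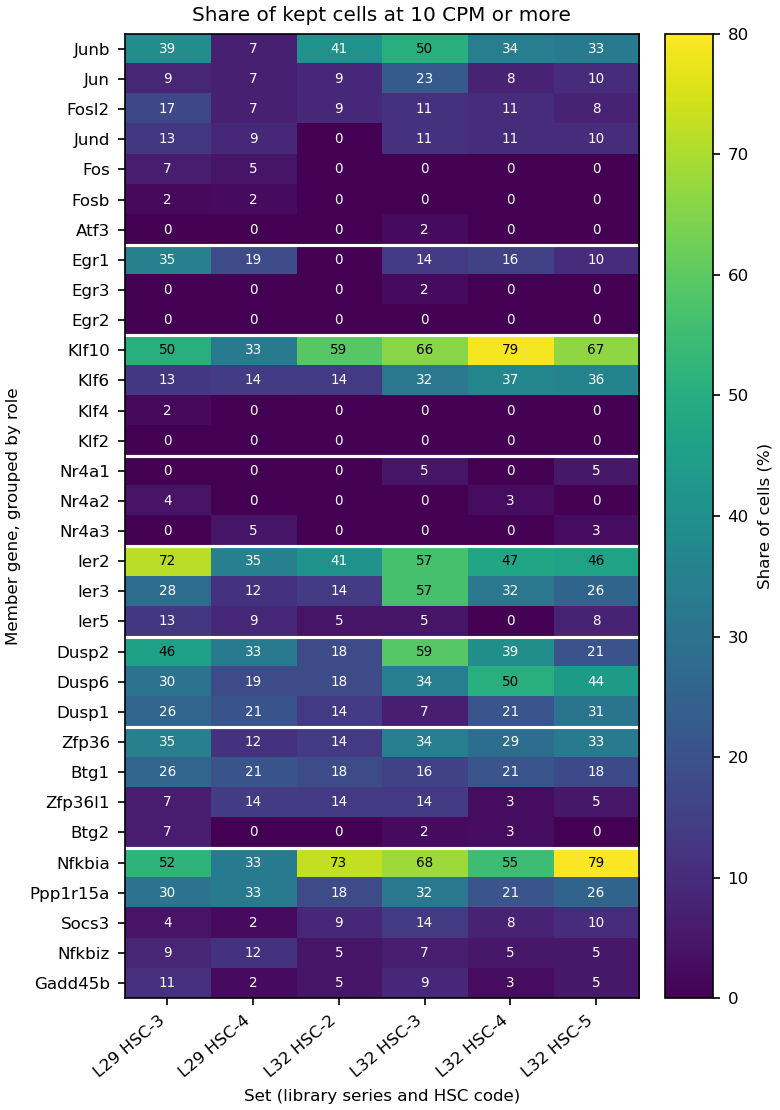
Share of kept cells with at least 10 CPM for each of the 32 members (rows, grouped by role, percent printed in each tile) in the 6 sets (columns). Nfkbia, Klf10 and Ier2 are the 3 members found in over 50% of all kept cells, and Fos is above 0 only in the 2 L29 sets.

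Among the AP-1 genes, whose products pair to form a dimeric transcription factor, Junb was the most widely detected. It reached 10 CPM in 33.6% of cells (exact Clopper-Pearson 95% interval 27.6% to 40.1%) at a mean of 110.5 CPM. By set its share was 39.1% in L29 HSC-3, 6.98% in L29 HSC-4, 40.9% in L32 HSC-2, 50.0% in L32 HSC-3, 34.2% in L32 HSC-4 and 33.3% in L32 HSC-5. Set L29 HSC-4 thus lay below the other 5, and after thinning each cell to 100000 counts it was still at 6.98% against 34.2% to 56.8%, with 1 read as detection. Thinning evens out depth only. A low share in this set was not particular to Junb: it was also lowest for Ier2, Ier3, Klf10, Nfkbia and Zfp36, though highest for Ppp1r15a. Jun, the classical Fos partner, was in 11.2% of cells (7.45% to 16.0%), with 22.7% in L32 HSC-3 and 6.98% to 10.3% in the other sets. Fosl2, which encodes Fra-2, was in 10.8% of cells (10.5% ± 3.8 as mean and SD over n = 6 sets). Its mean of 27.7 CPM rested on 1 cell of L29 HSC-3 at 2634 CPM, which held 41.0% of its summed CPM, and was 16.4 CPM without it. Jund was in 9.91% of cells, never above 100.2 CPM, Fosb in 0.862% and Atf3 in 0.431%.

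Fos itself was nearly silent. It was at 10 CPM in 5 of 232 cells, 2.16% (0.703% to 4.96%), and 226 cells had no Fos read at all. All 5 cells belonged to L29, 3 to HSC-3 (257, 223 and 779 CPM) and 2 to HSC-4 (179 and 630 CPM). The 143 cells of L32 held 0 Fos reads, which allows a share of up to 2.10% there. Over the L29 cells Fos stood at 22.3 CPM from 512 reads in 6 cells. At 10 CPM it was in 5 of the 89 cells, 5.62%. No fold against L32 is drawn from the reads, since PCR copies are counted repeatedly. The 5 Fos cells carried 9, 15, 8, 2 and 5 members, with Fos itself counted in each, against set medians of 5.5 and 3. Of them, 3 also had Junb, at 174, 2239 and 183 CPM, and 2 had Ier2, at 987 and 989 CPM.

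The Egr genes encode zinc finger factors downstream of ERK signalling, and of these only Egr1 was found in more than 1 cell. It was detected in 17.2% of cells (12.6% to 22.7%) at a mean of 71.6 CPM, and its detecting cells had a median of 188 CPM and a highest value of 3149 CPM. The share was 34.8% in L29 HSC-3, 18.6% in L29 HSC-4, 0% in L32 HSC-2, 13.6% in L32 HSC-3, 15.8% in L32 HSC-4 and 10.3% in L32 HSC-5. The 22 cells of L32 HSC-2 allow a share of up to 13.6% by the 3-cell floor. Egr3 was in 1 cell and Egr2 in 0 of 232 cells, which allows up to 1.29%.

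Klf10, a TGF-beta-inducible zinc finger repressor, was in 58.2% of cells (51.6% to 64.6%) at the highest mean CPM of the members, 274. Its set shares were 50.0%, 32.6%, 59.1%, 65.9%, 78.9% and 66.7%, from L29 HSC-3 to L32 HSC-5, so both L29 sets lay below all 4 L32 sets. Klf6 was in 24.6% (19.2% to 30.6%), with 13.0% to 14.0% in both L29 sets and L32 HSC-2 and 31.8% to 36.8% in the other 3 sets. Klf2 and Klf4, known for quiescence of lymphocytes and for pluripotency, were in 0 and 1 of 232 cells. The 3 Nr4a genes, orphan nuclear receptors induced by many stimuli, were in 1.72% (Nr4a1), 1.29% (Nr4a2) and 1.29% (Nr4a3) of cells. Nr4a3 had at least 1 read in 18.1% of cells but never more than 15.8 CPM, and it stood at 14.6 CPM in near-empty wells (9 reads) and at 0.574 CPM in the matching 66 kept cells.

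The Ier genes were named as immediate early response genes. Ier2 was in 50.9% of cells (44.2% to 57.5%) at a mean of 156 CPM, with 71.7% in L29 HSC-3, 34.9% in L29 HSC-4, 40.9% in L32 HSC-2, 56.8% in L32 HSC-3, 47.4% in L32 HSC-4 and 46.2% in L32 HSC-5. Ier3, a survival gene also called IEX-1, was in 29.3% (23.5% to 35.6%), from 11.6% in L29 HSC-4 to 56.8% in L32 HSC-3. Ier5 was in 6.90%.

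All 3 Dusp genes, which encode phosphatases that inactivate MAP kinases, passed 10% of cells. Dusp2 was in 37.9% (31.7% to 44.5%), with 45.7% in L29 HSC-3, 32.6% in L29 HSC-4, 18.2% in L32 HSC-2, 59.1% in L32 HSC-3, 39.5% in L32 HSC-4 and 20.5% in L32 HSC-5. Dusp6, the cytoplasmic ERK phosphatase, was in 33.2% (27.2% to 39.7%), from 18.2% in L32 HSC-2 to 50.0% in L32 HSC-4. Dusp1 was in 20.3% (15.3% to 26.0%), and L32 HSC-3, the set with the highest Dusp2 share, had the lowest Dusp1 share, 6.82%.

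Of the decay and antiproliferative genes, Zfp36, which encodes tristetraprolin and destabilises AU-rich mRNAs, was in 27.2% of cells (21.5% to 33.4%), from 11.6% in L29 HSC-4 to 34.8% in L29 HSC-3. Btg1 was in 20.3% with the smallest spread of the 15 (20.0% ± 3.6, SD over n = 6 sets) and at a low mean of 20.9 CPM. Zfp36l1 and Btg2 were in 9.05% and 2.16%. Of the feedback genes, Nfkbia, the inhibitor that holds NF-kB in the cytoplasm, was in 58.6% of cells (52.0% to 65.0%) at a mean of 232 CPM, with set shares of 52.2%, 32.6%, 72.7%, 68.2%, 55.3% and 79.5% from L29 HSC-3 to L32 HSC-5. Ppp1r15a (GADD34), which directs eIF2-alpha dephosphorylation, was in 27.6% (21.9% to 33.8%), with set shares from 18.2% to 32.6%. Socs3, Nfkbiz and Gadd45b were in 7.76%, 7.33% and 6.03%.

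Per length of transcript, Nfkbia was the highest member at 147 CPM per kb, followed by Ier2 at 102, Klf10 at 90.1, Dusp2 at 71.6, Ier3 at 70.1, Junb at 48.0 and Dusp6 at 41.7 CPM per kb. Neighbours in this order differed by less than the SD over sets of the higher one. Detected members were mostly well above the threshold, as the levels in single cells show. Among cells that had the gene, median levels were 382 CPM for Klf10, 309 for Dusp6, 278 for Ppp1r15a, 270 for Dusp2, 262 for Nfkbia, 245 for Ier2 and 244 for Junb. Of the 136 cells with Nfkbia 117 were over 100 CPM, and of the 135 with Klf10 114 were, while Btg1, with a median of 64.0 CPM, exceeded 100 CPM in 14 of 47 cells.

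**Figure D2:**
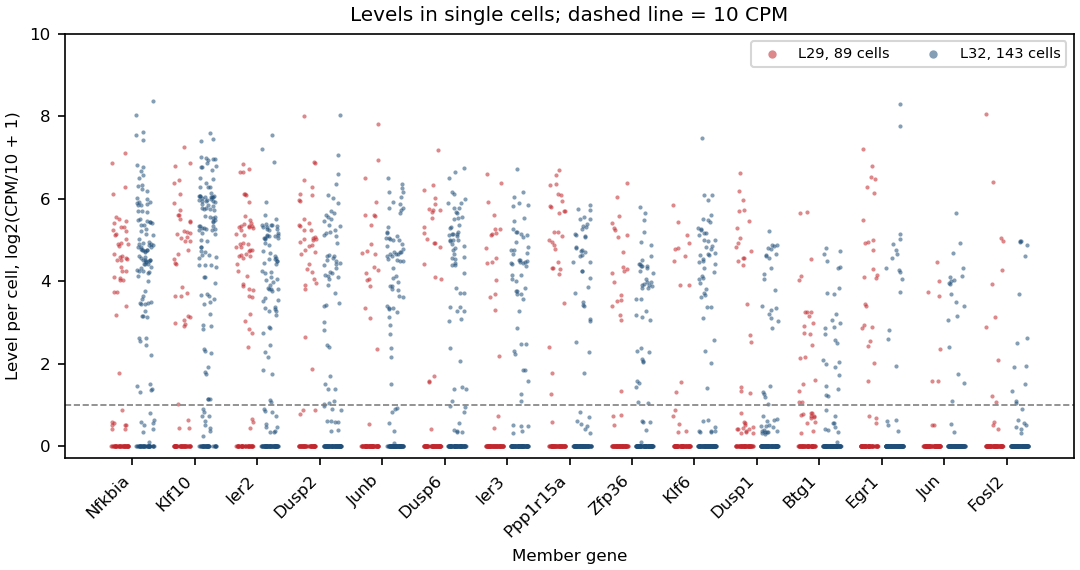
Level of the 15 members in each kept cell, as log2(CPM/10 + 1), with 89 cells of L29 (red) and 143 of L32 (blue); 1 point is 1 cell and the dashed line is 10 CPM. Most cells lie at 0 or well above the line, and the Btg1 cells lie lower than those of the other members.

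The next question was whether members were on in the same cells. Kept cells had a median of 5 members (range 0 to 15), with set medians of 5.5, 3, 4, 6, 5 and 5, and the members took a median of 0.128% of gene counts (0.00141% to 0.823%). At least 10 members were present in 13 cells, 5 of them in L29 HSC-3, 5 in L32 HSC-3, 2 in L29 HSC-4 and 1 in L32 HSC-4. The cell with most members, in L29 HSC-3, held 15 of them, among them Fos, Junb, Ier2, Dusp1, Btg2 and Gadd45b, at 0.801% of its counts. The variance of the member count within sets was 1.71 ± 0.56 (SD, n = 6 sets) times the variance that independent genes of the same shares would give, above 1 in 5 sets and 0.895 in L32 HSC-2. Without L29 HSC-4 it was 1.64 ± 0.60. The same ratio was 1.85 for the HSC identity list, 1.63 for the long-term HSC list, 1.53 for 50 other immediate early genes, 1.73 for 21 upstream kinases and factors and 1.596 for 12 heat shock genes, so the members lay within the range of the other lists, a difference that was not tested. Cells with more members also had more genes detected (mean Spearman rho 0.396 ± 0.177, positive in 6 of 6 sets) and more gene reads per spike-in read (0.294 ± 0.202, 6 of 6), while the relation to total counts had mixed signs (0.026 ± 0.328, positive in 4 of 6). The member count went with a lower mitochondrial share in 4 of 6 sets (-0.161 ± 0.377). Whether genes detected or RNA content produce the joint presence of members was not tested, and the correlations that follow adjust within each set for plate and for the ranks of detected genes and of totals.

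Over the 105 pairs of the 15 members, cells with both members were a median of 1.09 times as many as independence within sets would give, and 75 pairs (71.4%) lay above 1. Over all 46933514 pairs of the 9689 genes with an expected value above 0 the median was 1.03 and 62.7% lay above 1. These counts are not adjusted for the number of genes detected, which rose with the member count in 6 of 6 sets, so nothing particular to the members is read from them. Junb and Egr1 shared 22 cells where independence gives 13.2 (a ratio of 1.67, and 28.2% of the Junb cells and 55.0% of the Egr1 cells). Fosl2 and Junb shared 12 cells against 9.03, and Fosl2 and Jun only 1 against 2.85.

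In the partial Spearman correlations of levels, 3 of the 105 pairs were positive in 6 of 6 sets, against 1.63% of all 46933516 pairs of the 9689 genes, and 1 was negative in 6 of 6, against 1.7%. The members' median rho was 0.029 against 0.002 over all pairs. The 3 were Junb with Ier2 (mean rho 0.241 ± 0.134, SD over n = 6 sets), Ier3 with Klf10 (0.151 ± 0.110) and Junb with Dusp2 (0.146 ± 0.136). The largest means were those of Fosl2 with Junb (0.276 ± 0.245) and of Junb with Egr1 (0.251 ± 0.212), each positive in 5 of 6 sets. The negative pair was Klf6 with Ppp1r15a (-0.169 ± 0.168), and Dusp2 with Klf6 had the lowest mean (-0.171 ± 0.163, negative in 4 of 6). A weak correlation between sparse counts is no finding in itself, and a share of 3 in 105 is near the background.

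**Figure D3:**
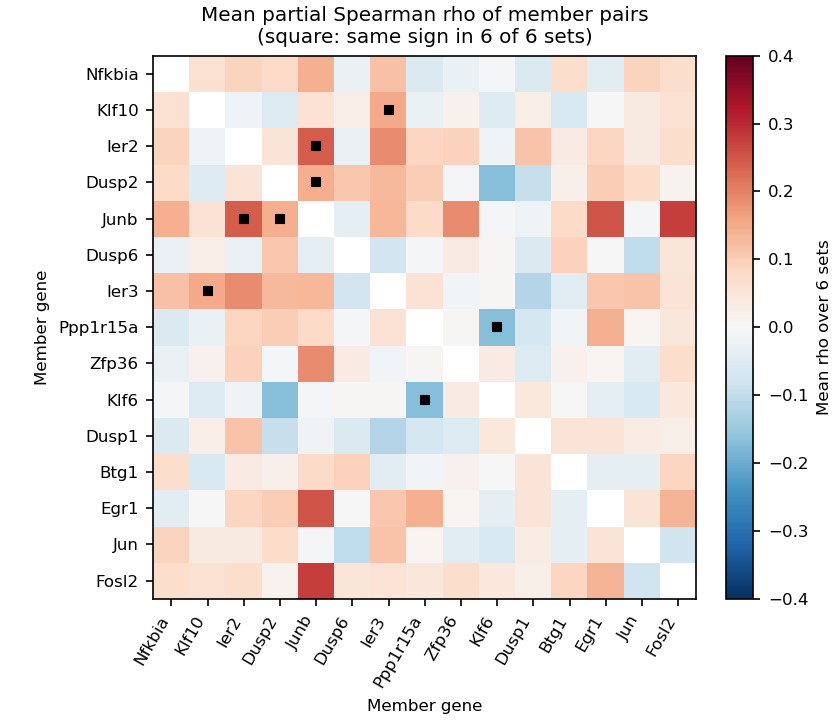
Mean partial Spearman rho over the 6 sets for each pair of the 15 members (colour scale from -0.4 to 0.4), with a black square where all 6 sets have the same sign. Junb is the row with the strongest red tiles, with Fosl2, Egr1 and Ier2, while most tiles are pale.

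The level of each member was then set against the mean log2(CPM/10 + 1) of the other 31 members in the same cell, called the member score. Of the 15, 2 were positive in 6 of 6 sets, Junb (mean rho 0.303 ± 0.166, SD over n = 6 sets) and Ier3 (0.238 ± 0.139), and 0 were negative in 6 of 6, against 1.75% and 1.9% of the 9689 genes. For Junb the rho was 0.342, 0.244, 0.454, 0.382, 0.0002 and 0.412 from L29 HSC-3 to L32 HSC-5, so that it was near 0 in L32 HSC-4. Egr1 (0.209 ± 0.201), Ier2 (0.208 ± 0.243) and Fosl2 (0.166 ± 0.099) were positive in 5 of 6 sets. The median over the 15 was 0.066 against -0.0002 over all genes. A mean above 0 was found for 12 of the 15, against 49.9% of all genes tested. Klf6 (-0.043 ± 0.224), Dusp1 (-0.029 ± 0.196) and Dusp6 (-0.001 ± 0.154) lay at or below 0. With a cell filter of 3 median absolute deviations (198 cells), 0 of the 15 kept a positive sign in 6 of 6 sets. With 1 set left out, a positive sign was needed in only 5 sets. The count was then 5 without L32 HSC-2, against 3.49% of all genes, and 4 without L32 HSC-4, against 3.31%. Members of 1 cell share its library and depth, so these values describe the cells at hand and carry no p.

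The 10 genes outside the list with the highest mean rho with the member score among those positive in 6 of 6 sets were Napg (0.238 ± 0.121), Lrrcc1, Myof (0.224 ± 0.075), Txnip (0.212 ± 0.139), Uck2, Afap1l1, the MAP kinase kinase kinase Map3k3 (0.207 ± 0.175), Dock2, Bpgm and Dtx3 (0.203 ± 0.110). Among the lowest were the exosome subunit Exosc1 (-0.311 ± 0.256), the cytokine Mif (-0.292 ± 0.206), Chd8, the RNA polymerase subunit Polr2l (-0.244 ± 0.149), Snrpd1, Ndufa2, Glb1l, Rps27l and Dad1, each negative in 6 of 6 sets, and these genes were named after their values were seen.

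Of 50 other immediate early genes 18 were in at least 10% of cells, and 16 of the 18 had a mean rho with the member score above 0 (median 0.067), none in 6 of 6 sets. The highest were the kinase gene Pim1 (0.167 ± 0.210), Irf1 (0.166 ± 0.178), the clock gene Per1 (0.124 ± 0.180) and Sertad1 (0.123 ± 0.249). By level the first 4 were the glucocorticoid target Tsc22d3 (486 CPM, 75.9% of cells), Myc (396 CPM, 57.3%), the G protein regulator Rgs1 (297 CPM, 40.9%) and Irf1 (148 CPM, 36.6%). Of 19 tested upstream genes 13 had a mean above 0 (68.4%, median 0.037), against the same 49.9%. Map3k1 was positive in 6 of 6 sets (0.157 ± 0.137), 1 of the 19 against 1.75% of all genes. Rps6ka3, which encodes the kinase RSK2, was negative in 6 of 6 (-0.097 ± 0.083), 1 of the 19 against 1.9%. Nfkb1 stood at 0.162 ± 0.247, Srf at 0.104 ± 0.124 and Map2k1 at 0.089 ± 0.190. Among the highest levels of the upstream list were those of Rps6ka1 (157 CPM), Nfkb1 (140 CPM) and Mapk14 (127 CPM). Heat shock genes are induced by protein damage through the factor Hsf1. Of 9 tested, 4 had a mean above 0 (44.4%, median -0.029), near the 49.9% of all genes. Hsf1 was negative in 6 of 6 sets (-0.145 ± 0.063), 1 of the 9 against 1.9% of all genes. Hspe1 was at -0.159 ± 0.137, Hsp90aa1 at -0.101 ± 0.097 and Bag3 at 0.069 ± 0.133. The list's levels were led by Hsp90ab1 (2959 CPM), Hspa8 (811 CPM), Hsp90aa1 (250 CPM) and Dnajb1 (246 CPM).

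**Figure D4:**
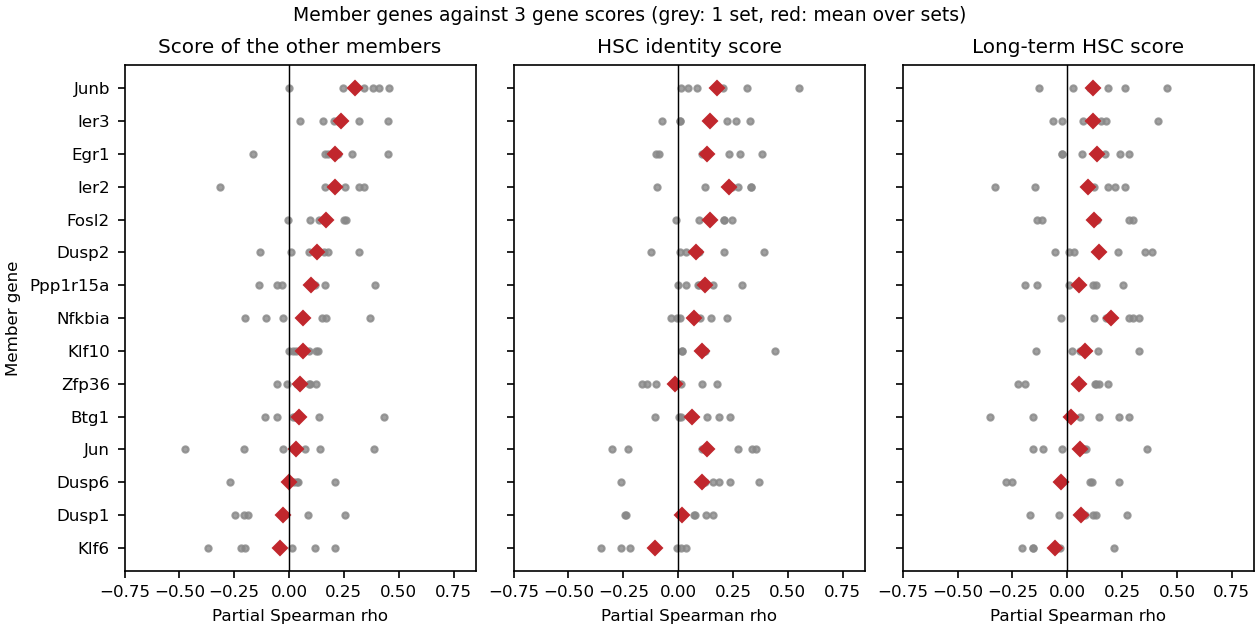
Partial Spearman rho of the 15 members with the score of the other members, the HSC identity score and the long-term HSC score; grey points are the 6 sets and the red diamond is their mean. Junb and Ier3 lie right of 0 in all 6 sets in the first panel, Junb and Klf10 in the second, and no member does in the third.

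The members were finally compared with HSC identity. Cells with a higher member score had a higher HSC identity score, the mean of 26 identity genes, in 6 of 6 sets. The rho was 0.269 in L29 HSC-3, 0.288 in L29 HSC-4, 0.539 in L32 HSC-2, 0.365 in L32 HSC-3, 0.187 in L32 HSC-4 and 0.363 in L32 HSC-5 (mean 0.321 ± 0.120, and 0.328 without L29 HSC-4). It was 0.308 when mitochondrial share and reads per spike-in read were also taken out, and 0.212 with Ier2, Junb, Egr1, Fosl2 and Ier3 left out of the member score, a choice made after their values were seen. With the score of 20 long-term HSC genes the rho was 0.267 ± 0.147, positive in 6 of 6 sets but only 0.039 in L32 HSC-5. It was 0.200 without those 5 members and 0.236 with the additional covariates, each positive in 5 of 6 sets.

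By member, Junb (0.175 ± 0.205) and Klf10 (0.110 ± 0.157) were positive with the HSC identity score in 6 of 6 sets, 2 of the 15 against 1.87% of all genes. In 6 of 6 sets 0 were negative, against 2.03%. With a sign needed in only 5 sets, 4 were positive without L32 HSC-2, against 4.52% of genes, and 4 without L32 HSC-5, against 3.60%. The count fell with the cell filter of 3 median absolute deviations. Ier2 had the highest mean (0.234 ± 0.164), positive in 5 of 6 sets, and Klf6 the lowest (-0.106 ± 0.166), negative in 4 of 6. The median of the 15 was 0.110 against 0.003 over all genes. Of the 15, 13 had a mean above 0, against 51.9% of all genes tested. With the long-term HSC score 0 of the 15 were positive and 0 negative in 6 of 6 sets, against 2.2% and 2.58% of genes. Nfkbia was highest (0.199 ± 0.135, 5 of 6), followed by Dusp2 (0.145 ± 0.190), and the median was 0.081 against -0.002.

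Seen from the identity genes, 22 of 26 had a mean rho with the member score above 0 (median 0.077), against 49.9% of all genes tested. None of the 26 had 1 sign in 6 of 6 sets. The 5 highest of both identity lists were Procr, which encodes the HSC marker EPCR (0.235 ± 0.193), Mllt3 (0.201 ± 0.148), Ly6a, which encodes the sorting marker Sca-1 (0.178 ± 0.203), Meis1 (0.172 ± 0.164) and Sult1a1 (0.168 ± 0.154), each positive in 5 of 6 sets. The 5 lowest of those tested were Fads3 (-0.072 ± 0.184), Tgm2 (-0.068 ± 0.174), Tal1 (-0.033 ± 0.146), Runx1 (-0.031 ± 0.123) and Ctnnal1 (-0.021 ± 0.136, positive in 5 of 6 sets). Of 16 tested long-term HSC genes 13 had a mean above 0 (median 0.097), against the same 49.9%.

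The library series of the labels allowed 1 comparison over sets, 4 sets of L32 against 2 of L29, on counts summed over the kept cells of each set. In edgeR's quasi-likelihood test 0% of 16476 genes were called higher and 0% lower at an adjusted p under 0.05, and 0 of 26 tested members (1433 genes, and 4 members, had an unadjusted p under 0.05). DESeq2's Wald test called 299 genes higher and 111 lower, with 2 members higher and 1 lower, Klf10, Nfkbia and Fos. Klf10 stood at 159 and 156 CPM in the L29 sets and at 341, 286, 399 and 328 CPM in the L32 sets, HSC-2 to HSC-5. The groups did not overlap, and the log2 fold change was 1.18 ± 0.22 (SE), at an adjusted p of 0.340 in edgeR (0.000255 in DESeq2, and 0.000255 to 0.820 over all alternatives). Nfkbia was at 168 and 128 CPM against 274, 241, 268 and 345 CPM (1.01 ± 0.24, adjusted p = 0.370 in edgeR, 0.00809 in DESeq2 and 0.00809 to 0.839 over all alternatives). Fosl2 was at 76.2 and 22.9 CPM against 17.9, 14.4, 14.0 and 6.86 CPM (-1.79 ± 0.64, adjusted p = 0.509 in edgeR, 0.171 to 0.820 over the alternatives), where the mean of L29 HSC-3 over cells fell from 77.5 to 20.6 CPM without its highest cell. Fos, at 24.1 and 20.0 CPM in L29 and 0 in all L32 sets, had an adjusted p of 0.340 in edgeR, 4.71e-07 in DESeq2 and 4.71e-07 to 0.820 over all alternatives, from 6 cells with a read. In all, 3 of the 26 members had L32 sets all higher (Klf10, Nfkbia and Jun), against 7.87% of genes, and 6 had them all lower (Fos, Fosl2, Dusp1, Btg1, Ier5 and Jund), against 14.7%. On means over cells instead of summed counts, a choice made after the summed values were seen, 5 members were all higher (Klf6 and Socs3 in addition) against 10.9% of genes and 5 all lower against 13.6%. Of the 6 lower ones, Fos, Fosl2 and Jund were lower by both measures, the sets of Dusp1, Btg1 and Ier5 overlapped, and Ppp1r15a and Zfp36l1 were added. The median log2 fold change was -0.70 over the members and 0.07 over all genes. It moved with single sets, to -0.39 without L29 HSC-3 (0.27 over all genes), -0.43 without L32 HSC-2 (0.05) and -1.09 without L32 HSC-3 (0.05). Library series and experiment or animal cannot be told apart.

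**Figure D5:**
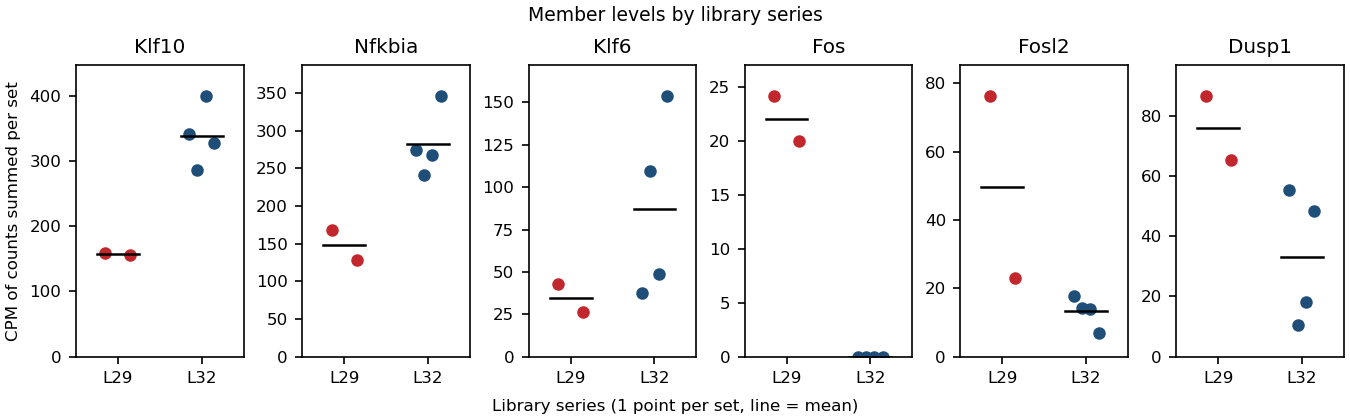
CPM of counts summed per set for 6 members by library series, 1 point per set (2 of L29 in red, 4 of L32 in blue), with a line at the mean; each panel has its own linear axis from 0. Klf10 and Nfkbia are higher in all 4 L32 sets, Fos is above 0 only in the 2 L29 sets, and the L29 mean of Fosl2 is set by 1 of its 2 points.

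Plates could be compared within the HSC-3, HSC-4 and HSC-5 sets of L32, which had kept cells on 2 plates. The HSC-2 set of L32 was also laid on 2 plates, but all of its 22 kept cells came from plate 1. In the HSC-3 set, plate 2 kept 20 of 40 wells. With the set as a block, edgeR's quasi-likelihood test called 0% of 14509 genes higher and 0% lower, and 0 of 22 tested members (632 genes and 1 member had an unadjusted p under 0.05, and DESeq2 called 95 genes higher and 62 lower, but 0 members). Nfkbia was lower on plate 2 in 3 of 3 sets, at 194 against 270 CPM in HSC-3, 171 against 302 CPM in HSC-4 and 207 against 392 CPM in HSC-5 (log2 fold change -0.82 ± 0.21, adjusted p = 0.999 in edgeR). Ier2, Ppp1r15a, Ier3 and Fosl2 were also lower on plate 2 in all 3 sets, and Junb and Ier5 were higher in all 3, each with an adjusted p of 0.999 in edgeR. With Nfkbia, 5 of the 22 members were lower in all 3 sets, against 11.9% of genes, and 2 were higher, against 12.5%. In the HSC-3 set Fosl2 differed little, at 14.3 against 14.5 CPM.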

How the data were processed

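The members and gene lists were chosen with earlier results of these data known. The authors deposited 1 table of raw read counts per gene and cell. GSNAP, featureCounts 1.6.2 and the build mm10 are named in the submitters' processing notes. The sources used here do not state the handling of strand and multimapped reads. Overlapping and antisense genes are therefore uncertain. Per the labels' protocols, cDNA was amplified with 22 PCR cycles. Rows of 92 spike-in RNAs (11.7% of all counts) and 1 transgene stayed out of totals. CPM, shares, log2(CPM/10 + 1) and partial Spearman correlations (adjusted for plate and for ranks of totals and detected genes) were computed with Python 3.11.15 from these counts. Mean rho is taken on the Fisher z scale, weighted by the cells of a set less 3. Sums per set were tested with edgeR 4.0.16 (quasi-likelihood, TMM, filterByExpr, Benjamini-Hochberg) and DESeq2 1.42.0. Sets are not known to be separate animals, so p-values cover set-to-set spread alone, possibly technical. On simulated counts for the series comparison (16476 genes), edgeR called 50.0% of 200 genes changed 16-fold and 25.5% of 200 changed 4-fold. Each simulated gene had the dispersion of the fitted trend, without scatter of its own. These shares therefore need not hold for members that rest on few cells. No doublet caller was run on sorted wells, and no 2 cells were identical. Named were all members, the 10 other genes highest with the member score, the 5 highest and 5 lowest identity genes, and the 4 leading genes by level and by rho of 3 related lists. Alternatives were other thresholds, thinning, cell filters, covariates, scalings and leaving out each set. Some genes that this rule names are not reported here.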

Additional observations from a re-analysis of the deposited data

Results flagged for a closer look

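For the 15 members detected in 10% of cells, the share of cells and the mean CPM were checked over the 6 sets for a set far from the others. Of 30 such groups of values 2 had one, where chance gives about 1 in 20. The mean CPM of Fosl2 was 77.5 in L29 HSC-3 against 9.24 to 24.8 in the other sets, and it rested on 1 cell. The share of cells with Jun was 22.7% in L32 HSC-3 against 6.98% to 10.3% in the others.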

How the results depend on the processing

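The count of members at 10% of cells, 15, was 19 at 1 CPM, 13 at 50 CPM, 17 after thinning and 14 to 16 with 1 set left out. Members positive with the member score in every set, 2, were 0 with the cell filter of 3 median absolute deviations, 1 with a pseudocount of 1 on CPM and 2 to 5 with 1 set left out. Those positive with the HSC identity score, 2, were 1 with the stricter filter and 2 to 4 with 1 set left out. Those with the long-term HSC score, 0, were 2 with plate as the only covariate, 1 with mitochondrial share and reads per spike-in read added and 0 to 2 with 1 set left out, and negative ones 0 to 1. Pairs positive in every set, 3, were 4 to 8 with 1 set left out. The share over all pairs of genes was computed for the main setting only, so the pair counts of the alternatives have no background. The negative pairs, 1, were 0 with plate only or the stricter filter, 2 with a pseudocount of 1 on CPM and 1 to 2 with 1 set left out. With 1 set left out, a sign in all sets is needed in 5 and not 6, so counts rise for all genes. Positive were 3.25% to 3.56% with the member score, 3.25% to 4.52% with the HSC identity score and 3.65% to 4.17% with the long-term HSC score. The mean rho of the member score with the HSC identity score ran from 0.297 to 0.346 and with the long-term HSC score from 0.232 to 0.311 with 1 set left out. With the cell filter of 3 median absolute deviations the 2 values were 0.270 and 0.275, and with plate as the only covariate 0.390 and 0.269. For the library series DESeq2 gave 299 genes higher and 111 lower, with 2 members higher and 1 lower, and no count filter gave 2 lower. Members whose sets did not overlap, 3 higher and 6 lower, were 5 and 5 on means over cells. For the plates DESeq2 gave 95 higher and 62 lower. No called value changed sign. Of the main values and counts, 200 held and 30 moved. Of the values of single genes and pairs, 2344 held, 53 moved and 3 passed the threshold under DESeq2 only. A share or rho was said to hold when it moved by less than its SD over the sets. That margin is wide, so these tallies say little about robustness. The fall of the mean rho with the HSC identity score from 0.321 to 0.212, without 5 members, counted as held. The score without 5 members was chosen after seeing the data. In the median cell 10 CPM is 2.801 reads, which limits all shares. The plate comparison pairs plates within sets; without the set as a block edgeR called 0 genes and 0 members, as with it (13224 genes tested, 509 at an unadjusted p under 0.05).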
